A study of Mus musculus with 2 samples.

Results

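Apoptosis genes were followed in splenocytes of mice immunized with glucose-6-phosphate isomerase (GPI), a model of arthritis, and of control immunized mice. The genes were 42 members of the BCL2 family, the caspases and their regulators, listed by gene name. A member was measured where the array carried a probe set (several short probes summarized as 1 signal) to which the platform annotation gives 1 gene symbol and no other. This held for 36 of the 42 members, with 75 probe sets, out of 12393 genes and 20380 probe sets on the array. Bax, Bnip3l, Trp53 and the near-identical copies Bcl2a1a, Bcl2a1b and Bcl2a1d had no such probe set and are not analysed here. Male DBA/1 mice of the GPI immunized group received 300 μg of recombinant human GPI fused to the carrier glutathione S-transferase (GPI-GST). Male DBA/1 mice of the control immunized group received 100 μg of the carrier (GST) alone, and both proteins were given in complete Freund's adjuvant. The groups thus differed in the mass of protein as well, and the paper gives a larger molecular weight for GPI-GST than for GST. Splenocyte RNA of day 10 was read on 1 Affymetrix mouse GeneChip per group. The study harvested 3 spleens per group, and neither the labels nor the methods say whether their RNA was pooled. With 1 array per group no difference could be tested, no p-value is given, and every ratio describes these 2 arrays.

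Apoptosis can start at the cell surface or at the mitochondrion. Death receptors of the TNF receptor superfamily recruit adaptors such as FADD and TRADD through death domains, and FADD brings in caspase-8, which CFLAR (cFLIP) holds in check. At the mitochondrion, BCL2 and its pro-survival relatives restrain the effectors BAX and BAK, and the BH3-only proteins release that restraint. Cytochrome c then leaves the mitochondrion and joins APAF1 in the apoptosome, which activates caspase-9, while inhibitor of apoptosis (IAP) proteins act against caspases and shape TNF receptor signalling. In the spleen this machinery sets how long lymphocytes and neutrophils live, and a separate group of inflammatory caspases processes interleukin-1β.

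The deposited signals are intensities on a linear scale. Each gene was read from its brightest probe set by mean log2 signal, and ratios are GPI immunized over control immunized. Genes were counted if at least 1 of their 2 signals was 50.2 or more (the 50th percentile over both arrays), which left 31 members and 6961 genes in all. As a yardstick, log2 ratios differed between the probe sets of 1 gene with an SD of 0.28, which was 0.34 where the higher signal was under 100 and 0.23 where it was 300 or more. This spread lies within the 2 arrays and holds no variation between mice or hybridizations. Bacterial control probe sets reached a signal of 14.1, and signals up to that level were taken as background. The median signal was 51.8 in GPI immunized splenocytes and 48.65 in control splenocytes.

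Tnfrsf1a, Fas and Tnfrsf21, all death receptors, had ratios of 1.5 or more in GPI immunized splenocytes, while the adaptor Fadd, the pro-survival gene Bcl2l1 and the IAP gene Birc3 had ratios of 0.667 or less. These were 3 and 3 of the 31 members (9.68% each way), against 7.04% of all 6961 genes at least 1.5-fold higher and 3.23% at least 1.5-fold lower. Fas reached the filter only through the GPI immunized array and Fadd only through the control array, each where it was higher, so both counts depend on the filter. Of the 29 members that reached it on both arrays, 2 were at least 1.5-fold higher and 2 at least 1.5-fold lower, against 5.49% and 2.41% of the 6596 such genes. With each array divided by its median, the share of all genes was 5.16% higher and 5.49% lower, and the members at 1.5-fold were again 3 higher and 3 lower. At 2-fold, 1 member (Tnfrsf1a) was higher and 0 were lower, against 2.23% and 0.445% of all genes. After division by the median the counts were 0 higher and 1 lower (Fadd), against 1.60% and 0.675% of all genes. The other 25 of the 31 members lay between these ratios. Their ratios ran from 0.714 (Casp8) to 1.40 (Bad). Of the 31 members 11 had ratios above 1, with a median log2 ratio of -0.07, and of all 6961 genes 4006 had ratios above 1, with a median of 0.06. The count of 11 depended on reading each gene from its brightest probe set. With the probe sets above the filter averaged, 15 of 31 members (48.4%) were above 1, against 60.0% of all genes. With all probe sets averaged it was 14 of 27 (51.9%), against 60.1%. The gap to all genes also depended on scaling. Without scaling, 35.5% of members and 57.5% of all genes were above 1. With each array divided by its median, 10 of 31 members (32.3%) were above 1, against 45.1% of all genes.

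**Figure D1:**
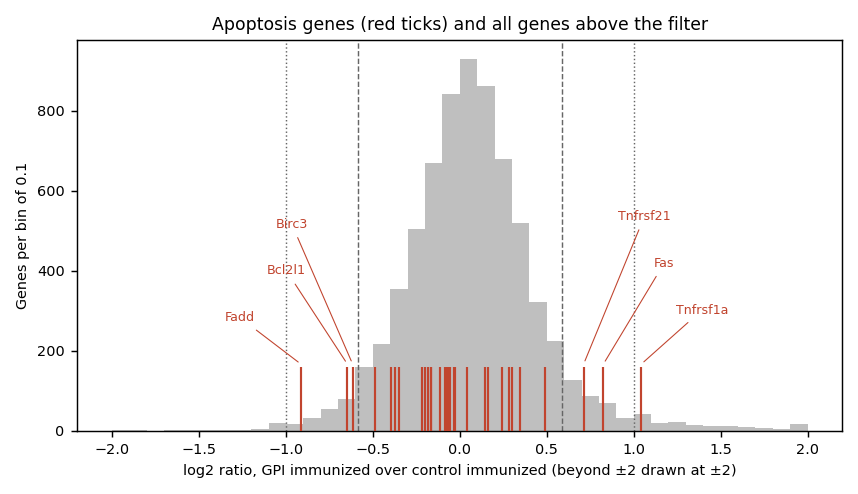
Distribution of log2 ratios (GPI immunized over control immunized, horizontal axis) over the 6961 genes above the filter, in genes per bin of 0.1 (vertical axis), with the 31 apoptosis genes as red ticks, dashed lines at 1.5-fold and dotted lines at 2-fold. The 6 named genes stand outside the dashed lines, 3 on each side, and the other 25 lie within them.

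Of the members above the filter, 3 death receptors had the highest ratios. Tnfrsf1a encodes TNF receptor 1, through which TNFα signals to both NF-κB and cell death. It had a signal of 263.5 in GPI immunized splenocytes and 127.9 in control splenocytes, a ratio of 2.06 that ranked 140 from the top of 6961 genes. The log2 ratio of 1.04 is 3.82 times the SD between probe sets at that signal. The ratio was under 2 when the arrays were scaled to each other (1.935 to 1.955 with 3 scalings). Fas, the receptor of Fas ligand that removes activated lymphocytes, had a signal of 87.7 in GPI immunized splenocytes and 49.5 in control splenocytes, a ratio of 1.77. Tnfrsf21 encodes death receptor 6. Its brighter probe set had signals of 252.7 in GPI immunized splenocytes and 154.3 in control splenocytes, a ratio of 1.64. The other probe set of Tnfrsf21 had signals of 119.6 in GPI immunized and 97.5 in control splenocytes, a ratio of 1.23, so the size of this difference depended on the probe set. Tnfrsf10b, the mouse TRAIL receptor, had signals of 2.1 in GPI immunized splenocytes and 1.0 in control splenocytes, both at background, and no ratio is given.

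Below these receptors, the adaptor Fadd was on the lower side and Tradd differed by probe set. Fadd, the death domain adaptor of Fas, had a signal of 42.6 in GPI immunized splenocytes and 80.2 in control splenocytes, a ratio of 0.531. It stood 46 from the bottom of the 6961 genes, and its log2 ratio of -0.91 is in size 2.68 times the SD of dim probe sets. Fadd was read by 1 probe set, and with signals raised to at least the 50th percentile its ratio was 0.626. Casp8, the initiator caspase that FADD recruits, had signals of 451.7 in GPI immunized splenocytes and 633.0 in control splenocytes, a ratio of 0.714. Tradd, the adaptor of TNF receptor 1, had signals of 182.4 in GPI immunized and 189.5 in control splenocytes (ratio 0.963), and its dimmer probe set had 81.1 in GPI immunized and 60.9 in control splenocytes (1.33). Ripk3, the kinase that drives necroptosis, had 194.8 in GPI immunized splenocytes and 160.2 in control splenocytes (1.22). Of the 6 members of this arm above the filter, the median log2 ratio was 0.50. Cflar lay on the low side with both of its probe sets above the filter. The brighter one had signals of 148.0 in GPI immunized splenocytes and 170.2 in control splenocytes (0.870), and the other had 69.4 in GPI immunized and 115.8 in control splenocytes (0.599).

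The RefSeq start regions of the members that stood apart are shown for 3 genes, Tnfrsf1a and Fas from the higher side and Bcl2l1 from the lower, because only theirs, among these 6 genes, held a match to the STAT motif TTCNNNGAA or the NF-κB consensus on either strand. Each run is 5′ to 3′ on the strand of the gene, from 250 bases before to 50 bases after a RefSeq start in GRCm38.p6, and the capitals mark the match. The sequence is that of the C57BL/6J reference, not of DBA/1 mice. The Tnfrsf1a region is chr6:125349473-125349772 (plus strand, STAT match from base -244), the Fas region chr19:34290409-34290708 (plus strand, STAT match from base -93) and the Bcl2l1 region, from 1 of its 3 starts, chr2:152830668-152830967 (minus strand, NF-κB match from base -242).
Tnfrsf1a: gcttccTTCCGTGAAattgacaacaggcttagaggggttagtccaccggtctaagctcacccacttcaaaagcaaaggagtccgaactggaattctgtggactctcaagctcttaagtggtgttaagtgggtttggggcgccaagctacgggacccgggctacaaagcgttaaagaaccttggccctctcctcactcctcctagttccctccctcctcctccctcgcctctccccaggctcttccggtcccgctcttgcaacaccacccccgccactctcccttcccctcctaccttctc
Fas: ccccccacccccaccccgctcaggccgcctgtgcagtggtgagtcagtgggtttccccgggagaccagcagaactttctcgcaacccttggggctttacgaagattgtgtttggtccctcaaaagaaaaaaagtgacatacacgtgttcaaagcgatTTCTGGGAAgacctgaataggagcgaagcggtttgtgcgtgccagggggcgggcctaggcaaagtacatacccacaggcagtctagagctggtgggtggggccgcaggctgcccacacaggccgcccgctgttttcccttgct
Bcl2l1: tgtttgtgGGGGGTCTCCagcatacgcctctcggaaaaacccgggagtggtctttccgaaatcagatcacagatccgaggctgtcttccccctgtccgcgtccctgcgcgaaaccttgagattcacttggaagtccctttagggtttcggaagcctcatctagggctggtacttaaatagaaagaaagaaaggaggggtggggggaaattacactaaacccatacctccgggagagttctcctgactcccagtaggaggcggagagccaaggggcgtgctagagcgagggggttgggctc
The 37 members with a start region in the table had 50 regions. Of these 4 (8%) held the STAT motif, against 8.30% of all 32851 regions, and 6 (12%) held the NF-κB consensus, against 4.51% of all. The p53 decamer was in 5 (10%), against 8.36% of all, and in none of the 6 genes that stood apart. The regions with the NF-κB consensus belonged to Bbc3, Bcl2l1, Bmf, Casp4 and Trp53. A match of letters is a description of these windows and not a binding site.

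The pro-survival BCL2 genes divided by gene. Bcl2l1 encodes BCL-XL, which keeps erythroid precursors and activated lymphocytes alive. Its bright probe set had a signal of 200.4 in GPI immunized splenocytes and 313.6 in control splenocytes, a ratio of 0.639 that ranked 166 from the bottom of all genes. A pair of dimmer Bcl2l1 probe sets had ratios of 0.919 and 0.734, and the remaining one was at background on both arrays (7.8 in GPI immunized and 1.0 in control splenocytes). Averaging all 4 probe sets gave 1.35, a value that rests on the probe set at background. Bcl2 itself, which sustains resting lymphocytes, had signals of 68.9 in GPI immunized splenocytes and 90.6 in control splenocytes, a ratio of 0.760. Mcl1, on which neutrophils, B cells and T cells depend, was read by 6 bright probe sets. Their ratios ran from 0.981, with signals of 2122.4 in GPI immunized splenocytes and 2164.3 in control splenocytes, to 1.39, with 887.3 in GPI immunized and 639.7 in control splenocytes, and 5 of the 6 lay above 1. Bcl2l2 (BCL-W) missed the filter by 0.1, with signals of 50.1 in GPI immunized splenocytes and 23.4 in control splenocytes, a ratio of 2.14 that lay opposite to those of Bcl2 and Bcl2l1. Its other probe sets were at background.

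Pro-death members of the BCL2 family above the filter stayed within 1.5-fold with their brightest probe sets. Bak1, an effector that forms pores in the outer mitochondrial membrane, had signals of 124.4 in GPI immunized splenocytes and 101.0 in control splenocytes (1.23). Among the BH3-only genes, Bad had the highest ratio above the filter. Its probe sets had signals of 108.7 and 103.0 in GPI immunized splenocytes and 77.4 and 81.4 in control splenocytes, which gave ratios of 1.40 and 1.27. The probe sets of Bid, which caspase-8 cleaves to link the death receptors to mitochondria, gave 1.18 and 1.19 from signals of 565.4 and 199.4 in GPI immunized splenocytes and 478.7 and 167.8 in control splenocytes. Pmaip1 (NOXA) had 165.3 in GPI immunized splenocytes and 149.4 in control splenocytes (1.11), and Bbc3 (PUMA) had 89.7 in GPI immunized and 100.8 in control splenocytes (0.890). Both are targets of p53. Bnip3, a mitophagy receptor related to this group, had 73.6 in GPI immunized splenocytes and 82.6 in control splenocytes (0.891). Bcl2l11 encodes BIM, which eliminates lymphocytes and granulocytes after cytokine withdrawal, and its probe sets disagreed. The brightest gave 0.950 (326.0 in GPI immunized splenocytes and 343.2 in control splenocytes), the second 1.02 and the third 0.558 (49.4 in GPI immunized and 88.5 in control splenocytes). A further pair of Bcl2l11 probe sets, under the filter but above background on both arrays, lay on the higher side. Their ratios were 1.71 (30.9 in GPI immunized and 18.1 in control splenocytes) and 1.81 (35.2 in GPI immunized and 19.5 in control splenocytes). Bmf was at background on both arrays, with 4.4 in GPI immunized and 1.9 in control splenocytes. Bik, under the filter, had a signal of 7.5 in GPI immunized splenocytes, within background, and 21.3 in control splenocytes, a ratio of 0.662 with the lower signal raised to the highest bacterial control signal.

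**Figure D2:**
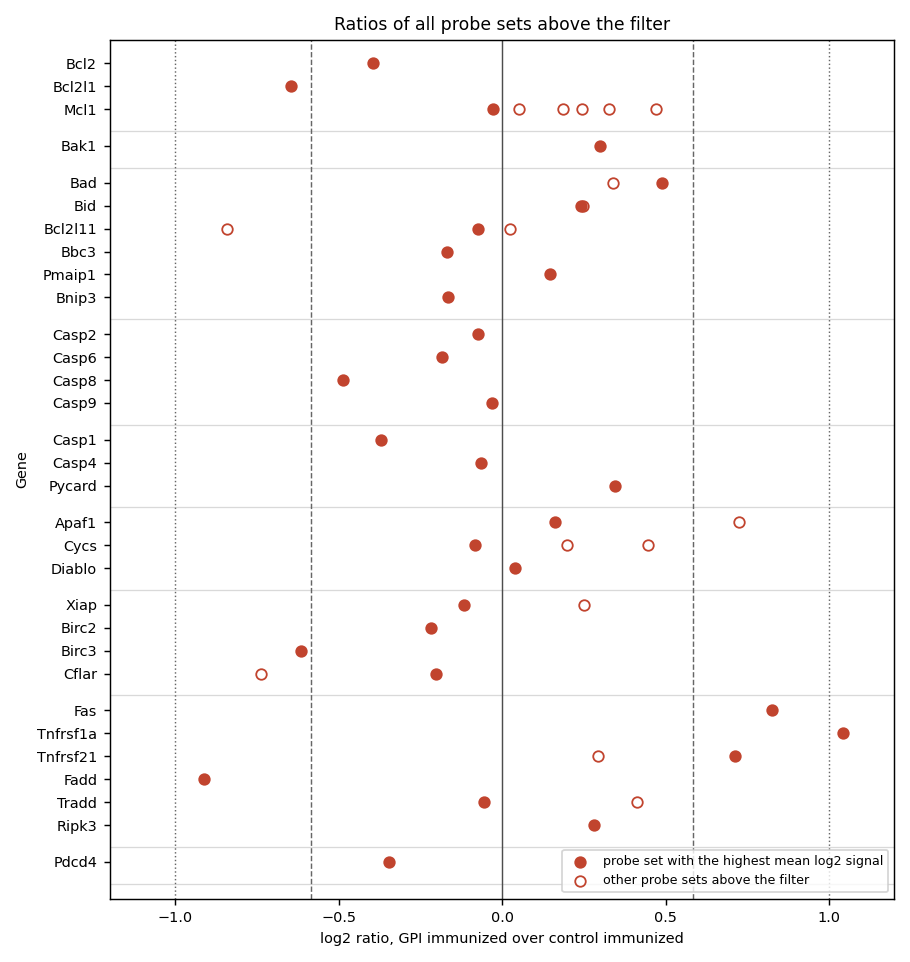
Log2 ratio (GPI immunized over control immunized, horizontal axis) of the 47 probe sets above the filter, by gene (vertical axis, grouped by role), with filled points for the brightest probe set of each gene, open points for the others, dashed lines at 1.5-fold and dotted lines at 2-fold. Probe sets of Mcl1, Bcl2l11, Cycs, Xiap and Tradd lie on both sides of 0, and those of Bad, Bid, Apaf1, Cflar and Tnfrsf21 on 1 side.

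The mitochondrial and apoptotic caspase members, all above the filter, also stayed within 1.5-fold with their brightest probe sets. Cycs, somatic cytochrome c, had ratios of 0.944, 1.36 and 1.15 from its 3 probe sets, with signals of 1893.9, 1697.7 and 521.2 in GPI immunized splenocytes and 2007.1, 1246.2 and 454.0 in control splenocytes. Apaf1 had 230.6 in GPI immunized splenocytes and 206.2 in control splenocytes (1.12), and its dimmer probe set had 80.4 in GPI immunized and 48.7 in control splenocytes (1.65). Diablo (SMAC), which antagonizes IAP proteins after release from mitochondria, had 225.8 in GPI immunized splenocytes and 219.6 in control splenocytes (1.03). All 4 apoptotic caspases had ratios below 1, with a median log2 ratio of -0.13. Apart from Casp8 these were Casp6, an executioner, with 210.5 in GPI immunized splenocytes and 239.1 in control splenocytes (0.880), Casp2 with 528.3 in GPI immunized and 556.2 in control splenocytes (0.950) and Casp9, the caspase of the apoptosome, with 108.1 in GPI immunized and 110.5 in control splenocytes (0.978). The log2 ratios of Casp2, Casp6 and Casp9 were smaller in size than the SD between probe sets.

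Inflammatory caspases and their adaptor went different ways. Pycard encodes ASC, the adaptor that joins inflammasome sensors to caspase-1. It had signals of 658.1 in GPI immunized splenocytes and 518.3 in control splenocytes, a ratio of 1.27. Casp1, which cleaves pro-interleukin-1β, had 233.8 in GPI immunized splenocytes and 302.5 in control splenocytes, a ratio of 0.773. Casp4, which encodes mouse caspase-11 (a sensor of intracellular lipopolysaccharide), had 101.3 in GPI immunized and 105.9 in control splenocytes (0.957). Both probe sets of Casp12 were at background on both arrays, the brighter with 8.5 in GPI immunized and 1.4 in control splenocytes.

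The IAP genes among the members, Birc3, Birc2 and Xiap, had ratios below 1 with their brightest probe sets. So had 2950 of all 6961 genes. Of other IAP family genes, Naip2 (1.41), Naip5 (1.05) and Birc6 (1.02) lay above 1 and Birc5 (0.900) below. Birc3 (cIAP2), an NF-κB target that ubiquitinates RIP kinases, had signals of 853.8 in GPI immunized splenocytes and 1308.5 in control splenocytes, a ratio of 0.653. Its log2 ratio of -0.62 is in size 2.69 times the SD of bright probe sets, and its dimmer probe set, under the filter, had 16.6 in GPI immunized and 39.0 in control splenocytes (0.426). Birc2 (cIAP1) had 322.6 in GPI immunized splenocytes and 375.4 in control splenocytes (0.859). Xiap, an IAP that binds caspases directly, had 523.7 in GPI immunized splenocytes and 567.8 in control splenocytes (0.922). A second Xiap probe set above the filter had 81.3 in GPI immunized and 68.4 in control splenocytes (1.19). With their brightest probe sets, the log2 ratios of Birc2 and Xiap were smaller in size than the SD between probe sets. Pdcd4, an inhibitor of translation initiation that is linked to cell death, had 618.3 in GPI immunized splenocytes and 786.6 in control splenocytes (0.786).

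**Figure D3:**
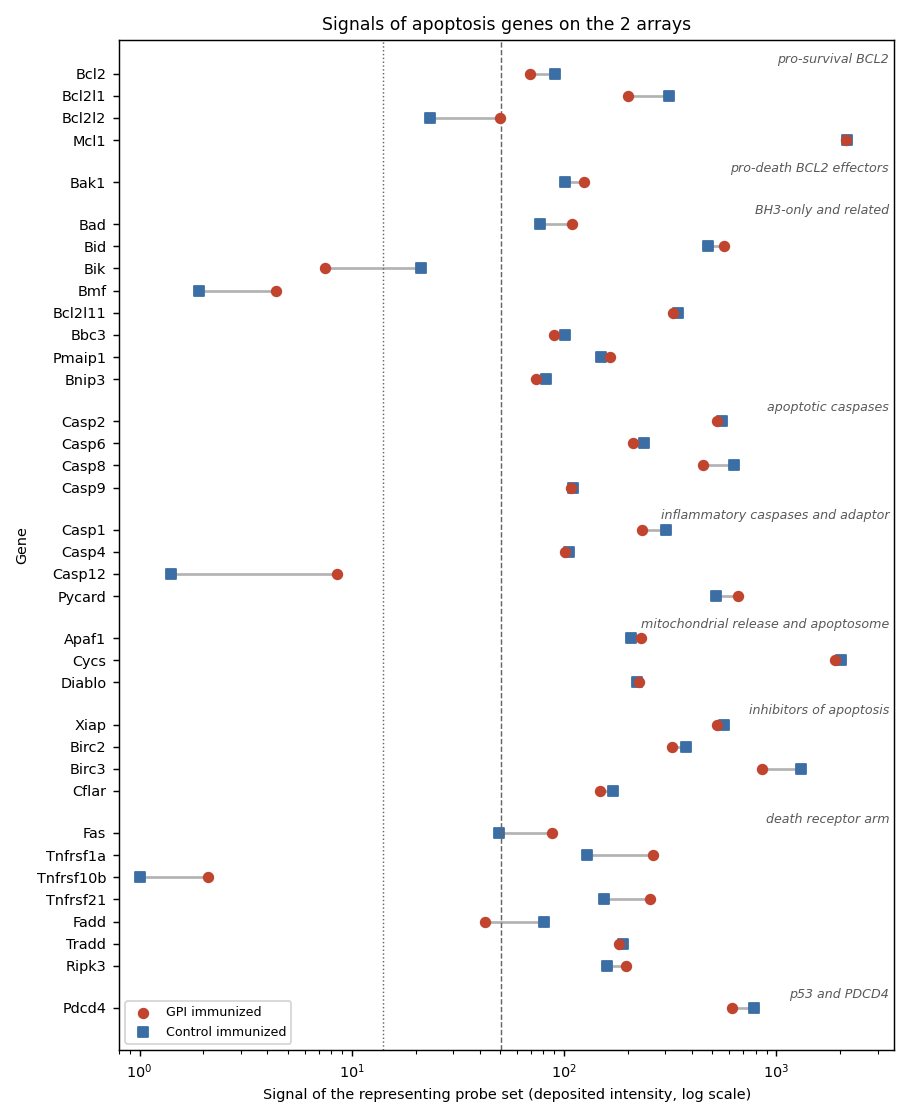
Signals of the 36 measured apoptosis genes on the GPI immunized array (red circles) and the control array (blue squares), deposited intensity on a log scale (horizontal axis) by gene and role (vertical axis), 1 array per group, with a dotted line at the highest bacterial control signal of 14.1 and a dashed line at the filter of 50.2. The receptors Fas, Tnfrsf1a and Tnfrsf21 have their red points to the right, and Fadd, Bcl2l1, Birc3 and Casp8 have them to the left. Bmf, Casp12 and Tnfrsf10b lie at background.

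Other genes of the same pathways were read from lists that held no member. Of these, 78 were measured and 59 passed the filter, with a median log2 ratio of 0.07. Of the 59, 7 (11.9%) were at least 1.5-fold higher and 2 (3.39%) at least 1.5-fold lower, against 7.04% and 3.23% of all genes. Of the 7, Card10, Ltbr, Bag3 and Cdkn1a reached the filter only through the GPI immunized array, where they were higher, so their count depends on the filter. Of the 51 genes that reached it on both arrays, 3 (5.88%) were at least 1.5-fold higher and 2 (3.92%) at least 1.5-fold lower. These shares were near those of all genes that did so, 5.49% and 2.41%. The inflammasome list held 3 of the 7, Il1b (1920.2 in GPI immunized splenocytes and 708.3 in control splenocytes, ratio 2.71), the pyrin gene Mefv (162.9 in GPI immunized and 75.6 in control splenocytes, 2.15) and the CARD adaptor gene Card10 (102.6 in GPI immunized and 45.0 in control splenocytes, 2.28). The last is better known for NF-κB signalling. In the same list Aim2, a sensor of cytosolic DNA, had 71.0 in GPI immunized splenocytes and 117.9 in control splenocytes (0.602). The lymphotoxin β receptor gene Ltbr (78.4 in GPI immunized and 45.6 in control splenocytes, 1.72) and the co-chaperone gene Bag3 (62.7 in GPI immunized and 33.7 in control splenocytes, 1.86) were higher, and lymphotoxin α (Lta, 73.4 in GPI immunized and 129.4 in control splenocytes, 0.567) was lower. Among p53 pathway genes, the stress gene Gadd45b (195.7 in GPI immunized splenocytes and 125.3 in control splenocytes, 1.56) and the cell cycle inhibitor gene Cdkn1a (59.0 in GPI immunized and 38.4 in control splenocytes, 1.54) were at least 1.5-fold higher, and the other 14 that passed the filter ran from 0.669 (Sesn1) to 1.47 (Aen). The death ligand genes Fasl, Tnfsf10 (TRAIL) and Tnf were under the filter. Fasl had signals of 15.8 in GPI immunized splenocytes and 17.8 in control splenocytes, and Tnfsf10 was at background on both. Tnf, which encodes TNFα, had 32.8 in GPI immunized and 36.8 in control splenocytes (0.891).

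Cell type markers also stood apart between the groups. All 18 measured neutrophil markers had ratios above 1 (median log2 ratio 1.08), with a summed signal of 55363 in GPI immunized splenocytes and 36897 in control splenocytes. Of 14 monocyte and macrophage markers above the filter 13 had ratios above 1 (median 0.27), with a summed signal over the 15 measured markers of 18248 in GPI immunized splenocytes and 14164 in control splenocytes. Of 13 T cell markers 11 had ratios below 1 (median -0.48, sums of 1897 in GPI immunized and 2636 in control splenocytes for 14 measured) and of 12 B cell markers 11 (median -0.38, 16030 in GPI immunized and 20416 in control splenocytes for 13 measured). None of the measured markers of these types was at 0 on either array. The macrophage marker Marco was at background on both arrays (2.7 in GPI immunized and 6.8 in control splenocytes). The B cell marker Pax5 was at background on the control array only (15 in GPI immunized and 6.4 in control splenocytes). Other B cell genes were bright, such as Cd79a (2076.5 in GPI immunized and 2961.3 in control splenocytes). Among T cell markers, Cd3d was the brightest (414.6 in GPI immunized and 475.1 in control splenocytes). Cd8b1 was under the filter (18.2 in GPI immunized and 29.6 in control splenocytes). The ratios of Bcl2 (0.760), Bcl2l1 (0.639), Birc3 (0.653), Casp8 (0.714) and Fadd (0.531) lay within the range of the T cell markers (0.509 to 1.14). The range of the B cell markers (0.491 to 1.14) held them as well. Both ranges are wide and held every member above the filter with a ratio below 1. Nor were low ratios particular to T and B cell markers. The range of the NK cell markers (0.565 to 1.39) held Bcl2, Bcl2l1, Birc3 and Casp8. That of the dendritic cell markers (0.641 to 1.46) held Bcl2, Birc3 and Casp8, and that of the erythroid markers (0.660 to 1.35) Bcl2 and Casp8. The ratios of Tnfrsf1a (2.06), Fas (1.77) and Tnfrsf21 (1.64) lay above all these ranges, within that of the neutrophil markers (1.12 to 3.28). They also lay within the range of the monocyte and macrophage markers (0.901 to 4.93). For Tnfrsf1a this held only through Cd14 (4.93), as the next highest of these markers was Fcgr1 (1.85). Fas and Tnfrsf21 lay within the range of the plasma cell markers too (0.881 to 1.89). This held only through Xbp1 (1.89), as the next highest plasma cell marker was Sdc1 (1.11). The part of cell composition in the ratios of the apoptosis genes was not tested. In RNA of whole splenocytes, more cells of a type and more RNA per cell cannot be told apart.

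**Figure D4:**
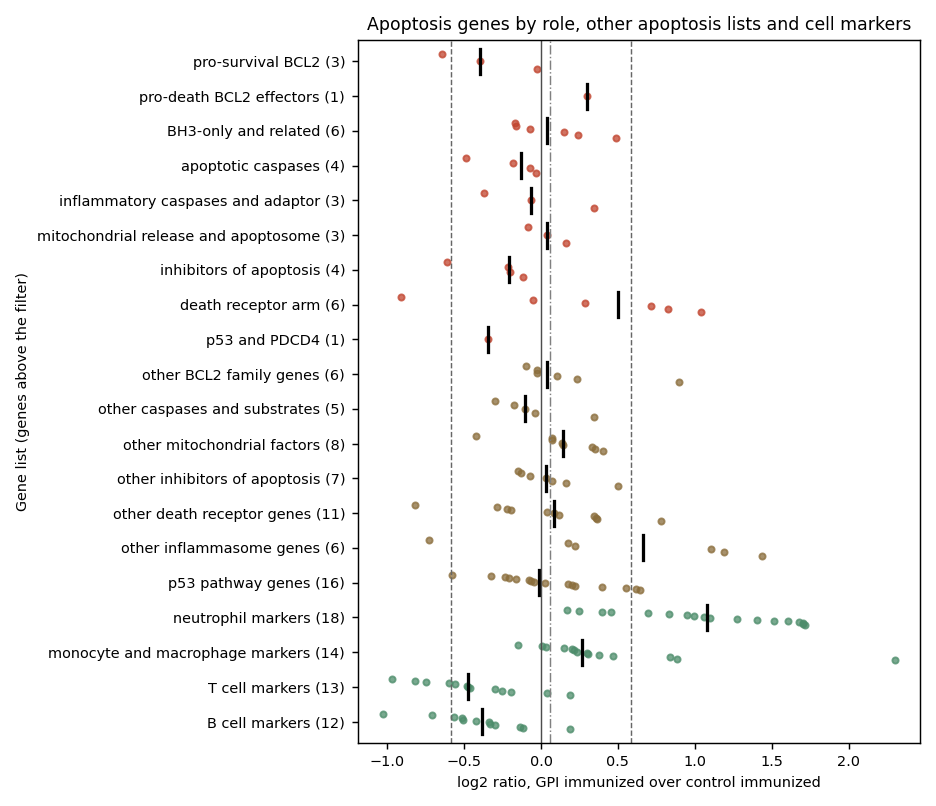
Log2 ratio (GPI immunized over control immunized, horizontal axis) of each gene above the filter, by list with the number of genes in brackets (vertical axis), for the apoptosis genes by role (red), other genes of the same pathways (brown) and cell type markers (green), with a black bar at the median of the list, dashed lines at 1.5-fold and a dash-dotted line at the median of all genes. The death receptor arm (median 0.50) spreads from Fadd to Tnfrsf1a, the neutrophil markers lie to the right with a median of 1.08 and most T and B cell markers to the left.

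The 6 genes that stood apart were followed through 11 other ways of processing. Tnfrsf1a ran from 1.935 to 2.06, Fas from 1.66 to 1.77 and Fadd from 0.497 to 0.626, each on 1 probe set and on 1 side of the 1.5-fold lines throughout, although Fas and Fadd fell under a filter at the 75th percentile. Tnfrsf21 was 1.23 without probe sets shared between transcripts and 1.42 with its probe sets averaged. Birc3 ran from 0.426 to 0.653. Bcl2l1 ran from 0.600 to 0.639, except for 1.35 with all its probe sets averaged.

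**Figure D5:**
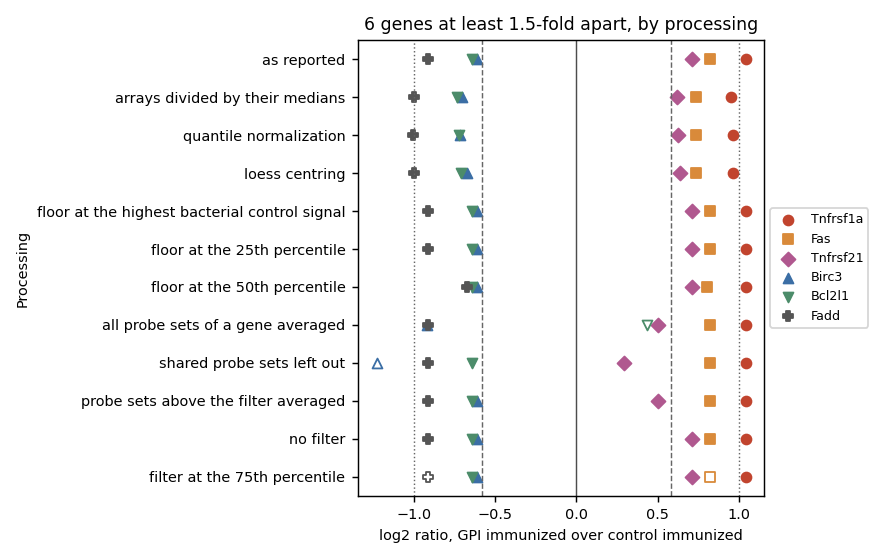
Log2 ratio (GPI immunized over control immunized, horizontal axis) of the 6 genes at least 1.5-fold apart, by processing (vertical axis), with dashed lines at 1.5-fold, dotted lines at 2-fold and open symbols where the gene was under the filter of that processing. Bcl2l1 changes sides of 0 where all its probe sets are averaged, and the 5 other genes keep theirs.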

How the data were processed

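Total RNA of splenocytes was read on 1 Affymetrix mouse array per group. The authors deposited 1 intensity per probe set and array on a linear scale, made with what the methods call gene expression software. The methods of summarization and scaling, not given in the sources used here, could change every ratio. Labels describe labelled cDNA of a whole-transcript kit and the paper describes biotinylated cRNA. The number of arrays limits the precision.

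Both columns were assigned to groups by their sample labels. Gene names came from the platform annotation, and the gene IDs of all 36 measured members matched the same symbols in RefSeq (GRCm38.p6). Ratios were formed without scaling, with signals of 0 set to 0.1. A gene was represented by its brightest probe set (mean log2 signal) and counted where the higher signal reached 50.2. Genes at least 1.5-fold or 2-fold apart were counted beside the share of all genes. The members, gene lists and thresholds were chosen with earlier results of these data known, and every measured member is named. In the lists of other apoptosis genes, those furthest from a ratio of 1 are named, along with some chosen after their values were seen. The steps were tested on simulated data with changes larger than 2-fold, scored at 2-fold, so calls at 1.5-fold were not tested. The 10 alternatives were 3 scalings, 3 floors under low signals, 2 choices of probe set and 2 filters, and 1 more, averaging the probe sets above the filter, was added after the data were seen. Software versions were Python 3.11.15, pandas 2.3.3, numpy 2.4.6, statsmodels 0.14.6, scipy 1.17.1 and, for the figures, matplotlib 3.10.9.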

Additional observations from a re-analysis of the deposited data

How the results depend on the processing

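The count of members at least 1.5-fold higher (3) was 2 or 3 under every alternative except no filter, where it was 7, and the count at least 1.5-fold lower (3) ran from 2 to 4. Without a filter, which left 36 members, 16.77% of all 12393 genes were at least 1.5-fold higher and 13.95% at least 1.5-fold lower. With each of the 3 scalings (loess centring, quantile normalization, medians set equal), 0 members were at least 2-fold higher and 1 was at least 2-fold lower. The shares of all genes were then 1.595% to 1.653% higher and 0.618% to 0.6754% lower. Without a filter, 5 of the 36 members were at least 2-fold higher and 1 at least 2-fold lower, against 10.17% and 8.89% of all genes. The 4 added on the higher side were Bmf, Casp12 and Tnfrsf10b, at background, and Bcl2l2 (2.14), which is above it. The median log2 ratio of the members (-0.07) ran from -0.16 to 0.05, and less the median of all genes from -0.13 to -0.02. The ratio of Bcl2l1 turned to 1.35 with all probe sets averaged and was 0.639 with only those above the filter, a setting added after the data were seen. Ratios of single members moved by more than the SD between probe sets only where the choice of probe sets changed: Bak1 (2.08), Diablo (0.840), Birc3 (0.527) and Apaf1 (1.36) when averaged, and Cycs (1.15), Birc3 (0.426), Tnfrsf21 (1.23) and Tradd (1.33) without shared probe sets. The value of 2.08 for Bak1 rests on a probe set at background (4.9 in GPI immunized and 1.4 in control splenocytes). Averaged in this way, Bak1 was under the filter. Low signal limits Fas and Fadd, each with 1 signal under 50.2 and 1 probe set.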

Other observations

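The split of the death receptor arm, with 3 receptors higher and Fadd lower on the GPI immunized array, rests on 5 probe sets. Genes beyond the members and near this arm lay on both sides as well. The adaptor Traf2 had signals of 158.4 in GPI immunized splenocytes and 149.7 in control splenocytes (1.06), the TNF receptor 2 gene Tnfrsf1b 180.1 in GPI immunized and 140.4 in control splenocytes (1.28), and the death domain-associated gene Daxx 195.5 in GPI immunized and 238.2 in control splenocytes (0.821). Genes of the outer mitochondrial membrane channel, Vdac1 (1269.4 in GPI immunized splenocytes and 959.6 in control splenocytes, 1.32) and Vdac2 (1944.4 in GPI immunized and 1543.6 in control splenocytes, 1.26), lay above 1, while Aifm1, the apoptosis-inducing factor, had 222.5 in GPI immunized and 298.9 in control splenocytes (0.744). Naip2, an inflammasome sensor of the IAP family, had 83.9 in GPI immunized and 59.4 in control splenocytes (1.41). None of these reached 1.5-fold.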
